A study of Mus musculus with 6 samples.

Results

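The genes described here encode the proteins that turn a muscle action potential into a calcium signal and then clear that signal. There are 10 of them: the voltage sensor Cacna1s, the release channel Ryr1, the junctophilins Jph1 and Jph2, the calsequestrins Casq1 and Casq2, the calcium pumps Atp2a1 and Atp2a2, the pump inhibitor Sln and the cytosolic buffer Pvalb. They were picked by symbol from a list of sarcoplasmic reticulum and triad genes, with no measured value in the rule. The choice was made with earlier results of these data known. All 10 were found among the 23282 rows of the count tables. RNA had been sequenced from gastrocnemius, a calf muscle made mostly of fast fibres, of wild-type C57/BL6J male mice aged 20 months. The treated group of 3 mice received inotodiol, a triterpenoid compound found in chaga mushroom, by mouth every day at 0.35 mg/kg for 10 weeks. The control group of 3 mice received only the vehicle, a mix of polyethylene glycol (40%), normal saline (0.9%) and Tween 80 (5%). All mice carried the same genotype and were old, so neither young muscle nor untreated muscle without vehicle was part of the comparison. The samples of a group are given as biological replicates, 1 library each.

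In a skeletal muscle fibre the surface membrane dips inwards as T-tubules, each flanked by a pair of sarcoplasmic reticulum cisternae in a junction called the triad. Depolarisation moves the voltage sensor in the T-tubule, which opens the release channel in the facing reticulum by direct contact, and junctophilins hold the membranes at the distance this contact needs. Calsequestrin stores calcium inside the reticulum, pumps of the SERCA family return it there after contraction, sarcolipin restrains these pumps, and parvalbumin binds calcium in the cytosol of fast fibres. Fast fibres use mainly the Atp2a1 pump and the Casq1 calsequestrin. Atp2a2 is the pump of slow fibres, which express Casq2 beside Casq1.

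The stretches upstream of 3 genes are shown to place the members that the results below turn on. These are Jph2, which had the smallest p of the 10 in the main analysis, and the calsequestrin pair, of which one form far outnumbers the other in this muscle. RefSeq promoter sequences of build GRCm38.p6 were matched for 7 of the 10 genes, and Atp2a2, Sln and Jph1 were not matched. Each line gives the 250 bases before the start, 5′ to 3′ on the gene's own strand, with matches to the letters CAGCTG in capitals. Jph2 lies at chr2:163397994-163398243 on the minus strand, Casq1 at chr1:172219896-172220145 on the minus strand and Casq2 at chr3:102086165-102086414 on the plus strand.
Jph2: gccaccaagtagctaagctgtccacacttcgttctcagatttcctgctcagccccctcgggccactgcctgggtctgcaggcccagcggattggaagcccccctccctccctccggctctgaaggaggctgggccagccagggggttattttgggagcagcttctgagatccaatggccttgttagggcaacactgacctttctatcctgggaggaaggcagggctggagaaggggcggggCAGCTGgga
Casq1: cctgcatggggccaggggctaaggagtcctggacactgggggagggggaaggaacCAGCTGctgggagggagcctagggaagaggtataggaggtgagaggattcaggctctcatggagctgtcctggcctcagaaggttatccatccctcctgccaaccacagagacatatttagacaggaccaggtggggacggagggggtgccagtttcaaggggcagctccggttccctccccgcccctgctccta
Casq2: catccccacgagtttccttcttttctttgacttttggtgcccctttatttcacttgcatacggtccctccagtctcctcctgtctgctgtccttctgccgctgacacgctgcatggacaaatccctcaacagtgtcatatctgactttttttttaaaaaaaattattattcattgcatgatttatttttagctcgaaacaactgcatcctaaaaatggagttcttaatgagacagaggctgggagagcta
CAGCTG, a palindromic form of the E-box that myogenic factors can bind, begins 9 bases before the start of Jph2 shown and 195 bases before that of Casq1. It is not among these letters of Casq2. Another listed start of Jph2, not shown, has it 29 bases before. CAGCTG was found in 4 of the 7 genes matched (also in Cacna1s and Atp2a1), counting a match at any listed start of a gene. Of the 32851 single promoters searched, 13% had it, a share of promoters and not of genes. The letters TATAAA, and the MEF2-like pattern of CTA and TAG parted by any 4 bases, were searched on both strands. They were found in 0 of the 7 genes, against 12.4% and 3.20% of the single promoters searched. A match describes the letters and is no evidence that a factor binds there.

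Libraries held 8961893 to 9953764 counts, and the 10 genes together took 2.85% to 3.67% of them. Levels are given as CPM, a gene's count relative to its library's total after TMM scaling between libraries. Fast-fibre myosin Myh4 stood at 39473 to 50226 CPM and slow-fibre myosin Myh7 at 212 to 319 CPM. Of the 5 heart markers, Nppa, Ryr2 and Tnni3 had at most 4 counts in any library. Myh6 and Tnnt2 passed the filter, and the 5 summed to 47.0 to 95.2 CPM in vehicle and 62.8 to 71.4 CPM in inotodiol libraries. The 7 hepatocyte markers summed to 12.5 to 65.2 CPM in vehicle and 79.6 to 547 CPM in inotodiol libraries, highest in inotodiol 1 and 2. The precursor ribosomal RNA Rn45s also took most in those libraries, 10.2% and 9.56% of counts, against 3.97% to 6.82% in the other four. The part of these differences in the results below was not tested beyond leaving each library out.

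The members covered a wide range of levels. Per kilobase of the longest annotated transcript, levels over the 6 libraries were 7442 to 9561 CPM for Pvalb, 4930.4 to 6217 for Atp2a1 and 472 to 578 for Casq1. Below these 3 came Ryr1 at 119 to 168, Cacna1s at 103 to 119.8 and Jph1 at 87.0 to 119.8 CPM per kilobase. The lowest were Atp2a2 at 50.8 to 63.4, Jph2 at 33.6 to 62.9, Casq2 at 15.1 to 22.6 and Sln at 7.24 to 17.0 CPM per kilobase. In this order the ranges of Ryr1 and Cacna1s, of Cacna1s and Jph1, of Atp2a2 and Jph2, and of Casq2 and Sln overlapped, and the other neighbours did not. Whether counts rise with transcript length in these libraries was not settled, so the order between genes of unlike length is uncertain. The spread between mice of a group was smallest for Cacna1s, with a coefficient of variation of 6.59%, and largest for Sln, at 33.8%, where counting error alone gives 1.23% and 8.01%.

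**Figure D1:**
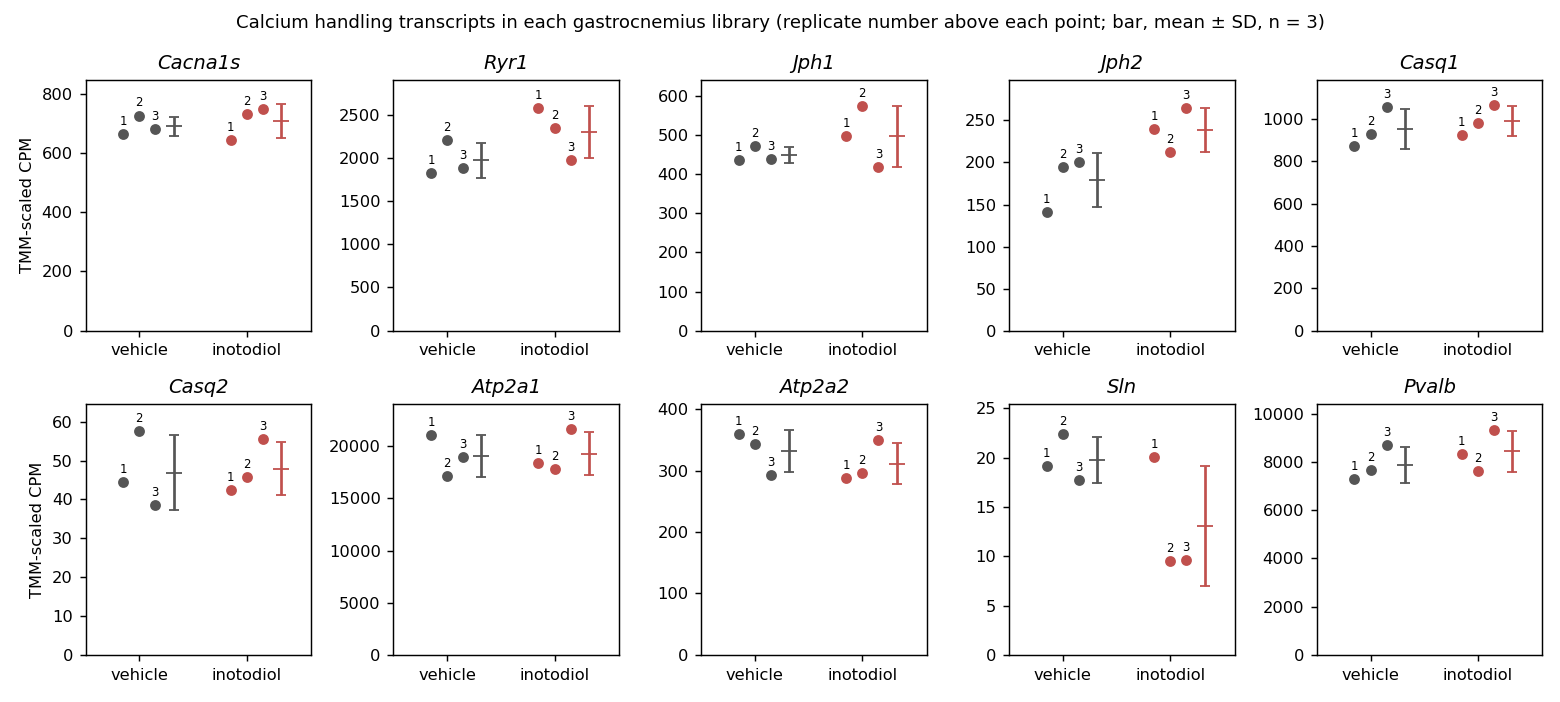
TMM-scaled CPM (vertical axis, from 0) of the 10 genes in each library, with the replicate number above each point and the mean ± SD (n = 3) beside it. Jph2 is the 1 gene whose inotodiol points all lie above its vehicle points, and Sln is low in inotodiol 2 and 3 alone.

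The comparison of inotodiol with vehicle asks whether treatment of old mice changed these transcripts. None of the 10 was called at an adjusted p under 0.05 by edgeR's quasi-likelihood test, in which 0% of the 11700 genes tested were called. At an unadjusted p under 0.05 there was 1 member, Jph2, where 4.87% of all genes tested reached that level (2.67% higher and 2.21% lower with inotodiol). Leaving out single libraries gave 0 to 2 members at that level. The groups did not overlap for the same 1 of 10, against 10.4% of all genes tested, so both counts are near the background. DESeq2, which called 0.00855% of its genes, and limma-voom, which called 0%, also called 0 of the 10, with 1 and 2 members at an unadjusted p under 0.05. Which member fell under 0.05 depended on the setting. In edgeR with library totals it was Sln (unadjusted p 0.021) and not Jph2 (0.090). Without inotodiol replicate 3 it was Ryr1 (edgeR, unadjusted p 0.015) and not Jph2 (0.063). Log2 fold changes were above 0 for 8 members, against 49.9% of all genes, with a median of 0.045 against -0.00073. The median was -0.066, with 3 members above 0, when libraries were scaled by their totals alone, which moved the median of all genes to -0.12. It was -0.0053, with 4 members above 0, without inotodiol replicate 3. For 8 members the 95% interval of the fold lay within 1.5-fold in either direction, and Sln and Jph2 were the exceptions. In whole muscle, fewer cells of a type and less RNA per cell cannot be told apart.

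**Figure D2:**
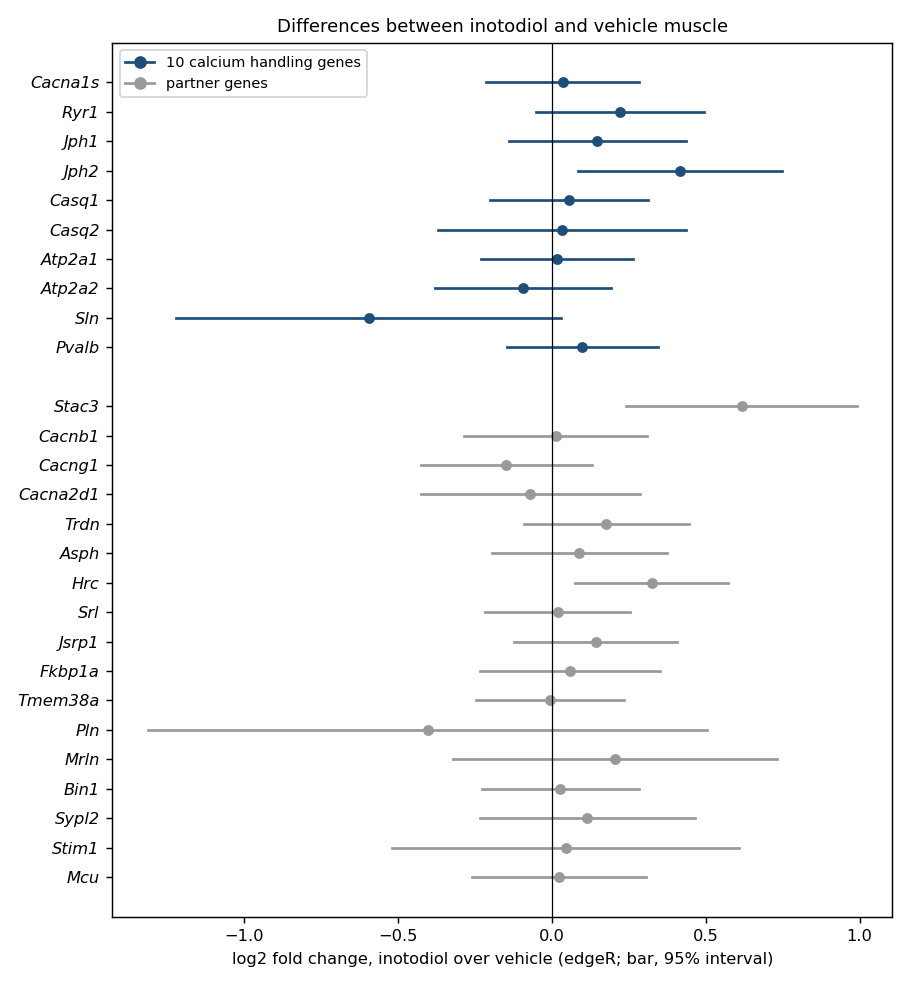
Log2 fold change of inotodiol over vehicle (horizontal axis) from edgeR, with 95% intervals, for the 10 genes (blue) and 17 partner genes (grey). Among these, the intervals of Jph2, Stac3 and Hrc lie above 0 before adjustment, and none of the 27 genes was called.

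The pair that couples voltage to release showed no called difference. Cacna1s (chromosome 1, 136052750 to 136119822), the pore-forming subunit of the voltage sensor, had 664, 726 and 679.8 CPM in vehicle libraries 1 to 3 and 642, 730.3 and 749 CPM in inotodiol libraries 1 to 3. Its groups overlapped throughout, at a log2 fold change of 0.035 ± 0.12 (SE) with a 95% interval of -0.21 to 0.28. Ryr1 (chromosome 7, 29003344 to 29125179), the calcium release channel, had 1829, 2209 and 1887 CPM in vehicle and 2577, 2347 and 1979.9 CPM in inotodiol libraries. Inotodiol 1 and 2 were the highest of the 6, while inotodiol 3 lay below vehicle 2, so the groups overlapped. The log2 fold change of Ryr1 was 0.22 ± 0.13 (95% interval -0.052 to 0.49), with an adjusted p of 0.96. It was 0.13 without inotodiol replicate 1 and 0.32 without inotodiol replicate 3. The libraries high in Ryr1 are also those high in Rn45s and liver transcripts, and the part of this in the difference was not tested. Relative to its partner, Cacna1s had 363, 329 and 360.3 counts per 1000 Ryr1 counts in vehicle and 249, 311 and 378 in inotodiol libraries. The vehicle values stayed within a narrow range and the inotodiol values ran below and above them (difference of -0.18 on the log2 scale, two-sided exact permutation p = 0.40, where 3 mice against 3 cannot give less than 0.10).

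Jph2 stood highest against vehicle among the members. It encodes the junctophilin that heart muscle relies on and that skeletal triads hold beside Jph1 (chromosome 2, 163336242 to 163397993). It had 142, 195 and 200.3 CPM in vehicle libraries and 239, 212 and 265 CPM in inotodiol libraries. All 3 treated mice lay above all 3 control mice, with vehicle 3 and inotodiol 2 the closest. The means were 179 ± 32.5 and 239 ± 26.4 CPM (SD, n = 3). This is a log2 fold change of 0.42 ± 0.15 (95% interval 0.084 to 0.75), or 1.33-fold with an interval of 1.06 to 1.68. Its unadjusted p was 0.018, rank 211 of the 11700 genes, and its adjusted p 0.96. Without vehicle replicate 1, the lowest library, it was 0.27 on the log2 scale (unadjusted p 0.091), and with library totals 0.31 (unadjusted p 0.090). The sum of 5 Schwann cell markers was also higher in all treated libraries and highest in inotodiol 3 (66.9 to 86.5 CPM in vehicle, 93.3 to 180 CPM with inotodiol). All 4 markers tested lay above 0. The groups did not overlap for 2 of them, higher with inotodiol, as for 5.15% of all genes tested. Mag, which did not pass the filter, had 6, 4 and 7 counts in vehicle and 5, 0 and 0 in inotodiol libraries. The 7 hepatocyte markers all lay above 0 as well, and the groups did not overlap for 6 of them. The part of either marker set in the Jph2 difference was not tested. Jph1 (chromosome 1, 16964560 to 17097889), the main junctophilin of skeletal muscle, had 436, 472 and 439 CPM in vehicle and 497, 576 and 419 CPM in inotodiol libraries. Inotodiol 3, the library highest in Jph2, was the lowest of all in Jph1. Jph1 differed by 0.15 ± 0.13 on the log2 scale (95% interval -0.14 to 0.43). The share of Jph2 in the counts of the 2 genes was 24.5, 29.2 and 31.3% in vehicle and 32.5, 26.9 and 38.8% in inotodiol libraries, with means of 28.4 ± 3.50% and 32.7 ± 5.92% (SD, n = 3). These shares overlapped and differed by 4.37 percentage points (two-sided exact permutation p = 0.40). Jph3, a junctophilin of the brain, had 0 counts in every library, which allows up to 0.335 unscaled CPM (3 counts of the library total).

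The calsequestrins, the calcium stores of the reticulum, did not differ between the groups by more than their spread. Casq1 (chromosome 1, 172209894 to 172219868), the fast-fibre form, had 872, 931 and 1058 CPM in vehicle and 926, 981 and 1068 CPM in inotodiol libraries, a log2 fold change of 0.056 ± 0.12 (95% interval -0.20 to 0.31). Library 3 was the highest in each group. Casq2 (chromosome 3, 102086415 to 102146514), the slow-fibre and heart form, had 44.4, 57.7 and 38.7 CPM in vehicle and 42.4, 45.8 and 55.6 CPM in inotodiol libraries, a log2 fold change of 0.032 ± 0.19 (95% interval -0.37 to 0.43). Vehicle 2 was the highest and vehicle 3 the lowest, so the control mice spanned the treated ones. The 8 slow-fibre markers include Myh7, Tnni1, Tnnt1 and Myl2. They summed to 2596, 2813 and 1947 CPM in vehicle and 2531, 2267 and 2739 CPM in inotodiol libraries. Like Casq2, the sum was highest in vehicle 2 and lowest in vehicle 3, as were Myh7, Tnni1 and Tnnt1 singly. Myl2 was lowest in vehicle 1 at 189 CPM and highest in inotodiol 3 at 378 CPM. Its log2 fold change was 0.38 ± 0.18 (edgeR, unadjusted p 0.061), against 0.12, 0.011 and -0.019 for Myh7, Tnni1 and Tnnt1. Over all 8 markers the log2 fold changes ran from -0.24 to 0.43, with 5 above 0 and 3 below, and both ends were markers not named here. Leaving out single libraries gave 0.19 to 0.59 for Myl2. The part of these markers in the Casq2 values was not tested. Casq2 made up 4.85, 5.83 and 3.53% of calsequestrin counts in vehicle and 4.38, 4.46 and 4.95% in inotodiol libraries. The control mice differed from each other beyond counting error, with Wilson 95% intervals of 5.37% to 6.33% for vehicle 2 and 3.20% to 3.89% for vehicle 3. The mean shares were 4.74 ± 1.16% and 4.60 ± 0.309% (SD, n = 3), a difference of -0.14 percentage points (two-sided exact permutation p = 0.90).

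Neither pump was called. Atp2a1 (chromosome 7, 126445858 to 126463108), the SERCA1 pump of fast fibres, had 21097, 17143 and 18915 CPM in vehicle and 18382, 17819 and 21617 CPM in inotodiol libraries. Vehicle 1 and inotodiol 3 were high and vehicle 2 was low, which left means of 19052 ± 1981 and 19273 ± 2049.6 CPM (SD, n = 3). On the log2 scale they differed by 0.017 ± 0.11, and its 95% interval allows a fold of 0.853 to 1.20. Atp2a2 (chromosome 5, 122453513 to 122502225), the SERCA2 pump of slow fibres, heart and most other cells, had 359.6, 343 and 293 CPM in vehicle and 288, 296 and 349.9 CPM in inotodiol libraries, a log2 fold change of -0.093 ± 0.13 (95% interval -0.38 to 0.19). Its groups overlapped, with vehicle 1 highest and inotodiol 1 lowest. Of the counts of both pumps, Atp2a2 held 1.68, 1.96 and 1.52% in vehicle and 1.54, 1.63 and 1.59% in inotodiol libraries. The control mice varied more than the treated ones, and the means of 1.72 ± 0.223% and 1.59 ± 0.0451% (SD, n = 3) differed by -0.13 percentage points (two-sided exact permutation p = 0.50). No stretch of 50 bases is shared between annotated transcripts of these 2 genes, and 3.31% of such stretches in Atp2a2 also occur in the gene model Gm30970.

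One neighbour limits the reading of Atp2a1. Rabep2, a gene of endosome traffic on the opposite strand, shares 763 exonic bases with it in 3 stretches between 126445858 and 126448872 of chromosome 7 (GRCm38), at the end of the Atp2a1 transcript. Rabep2 had 99070, 74398 and 90156 counts in vehicle and 91022, 80034 and 124636 counts in inotodiol libraries. That is 46.8% to 49.5% of the Atp2a1 count in vehicle and 49.8% to 59.1% in inotodiol libraries. The strand setting of the counting is not given in the sources used here, so reads in the shared stretches cannot be assigned to 1 of the 2 genes. Of the 50-base stretches of Atp2a1, 17.9% lie in the shared bases. With the Rabep2 counts added to Atp2a1, the Atp2a2 share was 1.17% in vehicle and 1.04% in inotodiol libraries on average.

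Sln, the small membrane protein that inhibits the pumps, did not pass the test, and it was low in 2 of the 3 treated mice. Sln (chromosome 9, 53850164 to 53854560) had 19.2, 22.3 and 17.8 CPM in vehicle and 20.1, 9.54 and 9.63 CPM in inotodiol libraries, from 182, 207 and 181 counts and 185, 86 and 94 counts. Inotodiol 2 and 3 lay below every control mouse, and inotodiol 1 lay within the control range. Its log2 fold change was -0.59 ± 0.29 (95% interval -1.22 to 0.030), with an unadjusted p of 0.061 and an adjusted p of 0.96. Leaving out single libraries gave -1.04 without inotodiol replicate 1 (unadjusted p 0.0015, adjusted p 0.99) to -0.41 without inotodiol replicate 2. With library totals the unadjusted p of Sln was 0.021 by edgeR (adjusted p 0.75), and limma-voom gave 0.030 (adjusted p 0.91). Per 1000 counts of the 2 pumps, Sln had 0.893, 1.28 and 0.925 counts in vehicle and 1.08, 0.527 and 0.439 counts in inotodiol libraries. The same libraries were low on this scale, which does not depend on scaling between libraries (difference of -0.70 on the log2 scale, two-sided exact permutation p = 0.30). The summed slow-fibre markers were 2267 and 2739 CPM in inotodiol 2 and 3, against 1947 to 2813 CPM in vehicle, and the part of fibre types in the Sln values was not tested. Other peptides that bind the pumps were also measured: myoregulin, Mrln, at 47.7, 23.6 and 41.4 CPM in vehicle and 44.2, 33.6 and 52.4 CPM in inotodiol libraries (log2 fold change 0.21 ± 0.24), and phospholamban, Pln, the inhibitor of slow and heart muscle, at 2.88 to 6.91 CPM over all libraries (-0.40 ± 0.42). Mrln turned to -0.031 without vehicle replicate 2, and Pln ranged from -0.71 to -0.18 over the libraries left out.

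Pvalb, parvalbumin, the calcium buffer that speeds relaxation of fast fibres (chromosome 15, 78191114 to 78206400), was the member with the highest level per kilobase. It had 7271, 7650.4 and 8710.2 CPM in vehicle and 8332, 7639 and 9341 CPM in inotodiol libraries. Library 3 was the highest in each group, and the groups overlapped. The groups differed by 0.10 ± 0.11 on the log2 scale, and its 95% interval allows a fold of 0.903 to 1.27. The 9 fast-fibre markers summed to 116477 to 119382 CPM in vehicle and 118111 to 131948 CPM in inotodiol libraries, highest in inotodiol 1 and 2. Of these markers, Myh4 stood at 0.099 ± 0.11 and Myh1 at 0.15 ± 0.16 on the log2 scale.

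**Figure D3:**
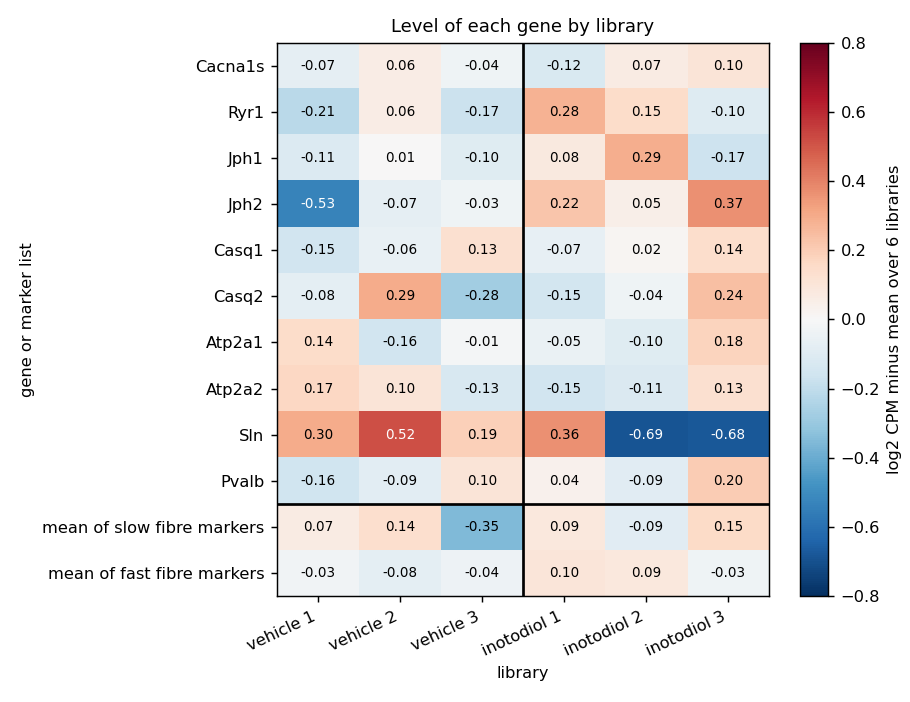
Level of each gene in each library (columns), as log2 CPM minus the mean over the 6 libraries, with the means of the slow-fibre and fast-fibre markers in the bottom rows. Jph2 runs from -0.53 in vehicle 1 to 0.37 in inotodiol 3, Sln is lowest in inotodiol 2 and 3 at -0.69 and -0.68, and the slow-fibre mean is lowest in vehicle 3 at -0.35.

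No library was high or low in all 10 genes. Averaged over the 10 genes, the level relative to the mean over libraries was -0.071, 0.066 and -0.034 in vehicle and 0.044, -0.046 and 0.041 in inotodiol libraries on the log2 scale. These averages overlapped between the groups. None of the 5 ratios compared within libraries separated the groups, and adjusted over the 5 by Benjamini-Hochberg the exact permutation p-values were 0.625 for 4 of them and 0.90 for the calsequestrin share.

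**Figure D4:**
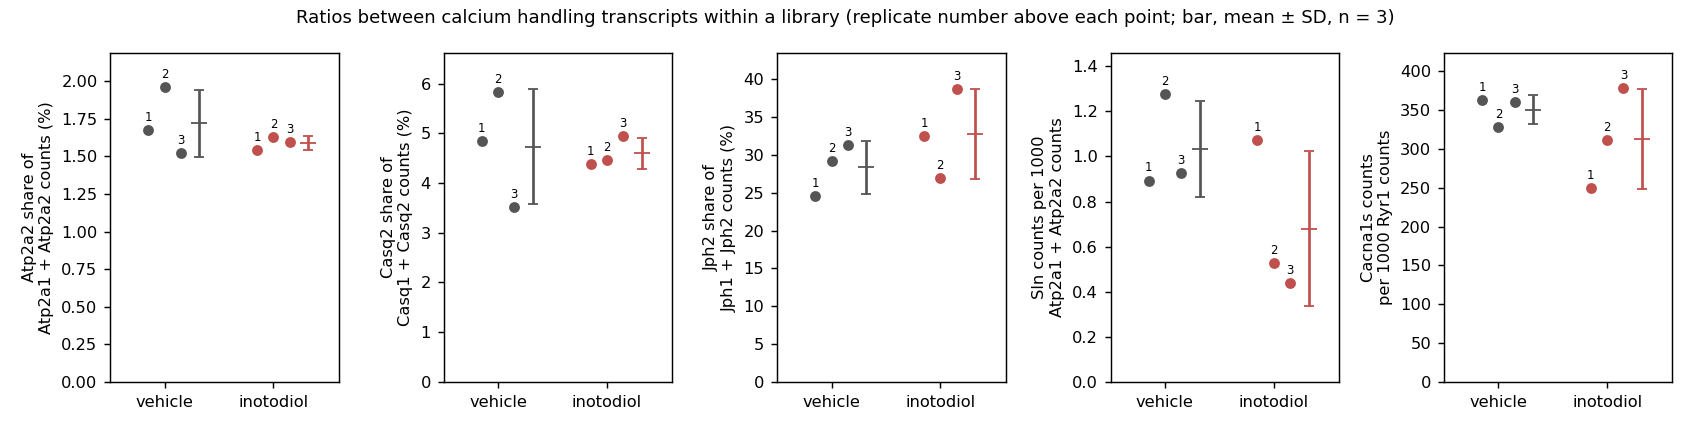
Ratios between members within a library (vertical axes, from 0): shares of Atp2a2, Casq2 and Jph2 in their pairs in percent, Sln per 1000 pump counts and Cacna1s per 1000 Ryr1 counts, with the mean ± SD (n = 3) beside the points. In every panel the groups overlap, and for Sln inotodiol 2 and 3 lie below the vehicle points while inotodiol 1 lies among them.

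The wider pathway was described with 81 further genes in 7 lists, of which 78 were in the tables under the listed or an older symbol and 67 passed the filter on low counts. Of the 67, 0 were called by edgeR, and 5 had an unadjusted p under 0.05, all higher with inotodiol, where 2.67% of all genes tested were higher at that level. With library totals Stac3 and Rcan1 stayed under 0.05 (unadjusted p 0.018 and 0.017), and Hrc, Camk2a and Ank1 did not (0.14, 0.090 and 0.12). Of the genes named here, Sepn1, Slc8a3 and Nfatc1 were lower with inotodiol on that scaling, at an unadjusted p of 0.046, 0.047 and 0.040. In all, 726 of the 11700 genes tested were under 0.05 on it in either direction. Pathway genes that are not named were not followed there. In the main analysis there was no overlap between groups for 10 of the 67, 5 higher and 5 lower with inotodiol, against 5.15% and 5.26% of all genes. The median log2 fold change of the 67 was 0.023. Members of a list are not independent of each other, the lists were chosen with earlier results of these data known, and no list was tested.

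Around the voltage sensor, Stac3 had the smallest p of the pathway. It encodes the adaptor that skeletal muscle needs to carry the voltage sensor's signal to the release channel. Stac3 had 28.9, 34.3 and 32.8 CPM in vehicle and 53.2, 40.7 and 53.3 CPM in inotodiol libraries, with all treated mice above all control mice. Its log2 fold change was 0.62 ± 0.17 (95% interval 0.24 to 0.99), with an unadjusted p of 0.0035 and an adjusted p of 0.66; leaving out single libraries gave 0.55 to 0.73. The other subunits of the sensor had smaller differences: 0.012 ± 0.14 for Cacnb1, the beta subunit, -0.15 ± 0.13 for Cacng1, the gamma subunit, and -0.070 ± 0.17 for Cacna2d1, the alpha2-delta subunit. Of the 4 genes tested in this list, 1 had groups that did not overlap, against 10.4% of all genes.

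Among the partners of the release channel and the proteins of the reticulum lumen, 12 of 16 genes tested lay above 0. The median difference was 0.083 on the log2 scale. Of the genes named here, Asph, Srl and Fkbp1a turned below 0 with library totals. Genes of this list that are not named were not followed on that scaling. Hrc, the histidine-rich calcium-binding protein of the lumen, had 457, 451 and 437 CPM in vehicle and 597, 567 and 519.6 CPM in inotodiol libraries. Every treated mouse lay above every control mouse, and the control mice were close together. This put Hrc at 0.32 ± 0.12 on the log2 scale (95% interval 0.076 to 0.57), with an unadjusted p of 0.014 and an adjusted p of 0.95. With library totals it was 0.20 (unadjusted p 0.14). Triadin, Trdn, which anchors calsequestrin to the release channel, had a log2 fold change of 0.18 ± 0.12, Asph, the gene of junctin, of 0.090 ± 0.13 and Jsrp1, the junctional protein JP-45, of 0.14 ± 0.12. Srl, sarcalumenin, stood at 0.019 ± 0.11, the counter-ion channel Tmem38a at -0.0064 ± 0.11, the immunophilin Fkbp1a, which stabilises the closed channel, at 0.059 ± 0.14 and S100a1, which binds the channel, at 0.25 ± 0.15. Sepn1, the older symbol of selenoprotein N, had 4.53, 3.35 and 3.14 CPM in vehicle and 2.06, 2.11 and 1.02 CPM in inotodiol libraries, lower in all treated mice but at few counts (-1.08 ± 0.55, adjusted p 0.96).

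Of the regulators of the pumps and the other calcium pumps and exchangers, 3 of the 8 tested lay above 0, where 49.9% of all genes did, with a median of -0.28 and 0 called. Pln and Mrln, given above, belong to this list. Slc8a3, a sodium-calcium exchanger of the surface membrane, had 84.4, 85.2 and 87.4 CPM in vehicle and 63.8, 78.3 and 75.5 CPM in inotodiol libraries, a log2 fold change of -0.24 ± 0.14. Atp2b3, a calcium pump of the surface membrane, had 9.79, 9.28 and 14.1 and 8.25, 9.10 and 7.38 CPM, a log2 fold change of -0.43 ± 0.29. Both were lower in all treated mice, and neither passed, with unadjusted p of 0.12 and 0.16. Atp2b3 stood at -0.21 without vehicle replicate 3 and Slc8a3 at -0.15 without inotodiol replicate 1. The related pump gene Atp2b4 stood at -0.32 ± 0.22 with overlapping groups, from -0.54 without inotodiol replicate 1 to -0.20 without inotodiol replicate 3.

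In the structure of the triad and T-tubule, 6 of 10 genes tested were above 0 with a median of 0.019. Ank1, whose small muscle isoform links the reticulum to the sarcomere, had 66.5, 87.9 and 71.2 CPM in vehicle and 75.3, 113 and 114 CPM in inotodiol libraries. Inotodiol 1 lay among the control mice and the other treated mice above them (log2 fold change 0.42 ± 0.18, unadjusted p 0.036, adjusted p 0.96). The T-tubule shaping gene Bin1 stood at 0.027 ± 0.12, the triad protein gene Sypl2 at 0.12 ± 0.16 and Mtm1, the lipid phosphatase myotubularin, at 0.53 ± 0.64 with at most 6.99 CPM. Mtm1 turned to -0.28 without inotodiol replicate 2. For store-operated entry, which refills the reticulum from outside, the sensor genes Stim1 and Stim2 stood at 0.044 ± 0.26 and -0.12 ± 0.17, the pore gene Orai1 at 0.047 ± 0.17 and Tmem110 at -0.55 ± 0.33. No gene of this list was separated between groups.

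For calcium uptake by mitochondria, the pore gene Mcu stood at 0.023 ± 0.13 and its regulator Micu3 at 0.39 ± 0.20, with 26.0, 19.8 and 20.1 CPM in vehicle and 26.0, 34.4 and 26.1 CPM in inotodiol libraries. Micu3 was higher in all treated mice, by little between vehicle 1 and inotodiol 1, and its adjusted p was 0.96. It stood at 0.25 without inotodiol replicate 2. Slc8b1, the mitochondrial sodium-calcium exchanger (-1.52 ± 0.83), and Ccdc109b, the older symbol of the pore subunit Mcub (-1.37 ± 1.00), had low levels, of 0.111 to 3.99 and 0 to 5.30 CPM. Without vehicle replicate 3, which holds 54 of its counts against 12 and 8 in the other control libraries, Ccdc109b stood at -0.15. Slc8b1 ranged from -2.37 without inotodiol replicate 1 to -0.998 without vehicle replicate 2. Among genes that respond to or relay calcium, Rcan1, an inhibitor of calcineurin whose own transcript calcineurin induces, had 81.9, 107 and 81.1 CPM in vehicle and 107, 130.4 and 193 CPM in inotodiol libraries. Inotodiol 3 stood far above the rest, and inotodiol 1 just below vehicle 2. Its log2 fold change was 0.67 ± 0.20 (unadjusted p 0.0054, adjusted p 0.75), and 0.39 without inotodiol replicate 3. With no filter on low counts, where 0.576% of genes were called, Rcan1 was among them (adjusted p 0.029). Camk2a, a calcium-calmodulin kinase, had 189, 271 and 255 CPM in vehicle and 308, 311 and 319.5 CPM in inotodiol libraries, with all treated mice higher (0.39 ± 0.14, unadjusted p 0.017, adjusted p 0.96). Without vehicle replicate 1 Camk2a stood at 0.25 (unadjusted p 0.087), and with library totals at 0.28. Nfatc1, a transcription factor that calcineurin activates, was lower in all treated mice at -0.33 ± 0.19 (unadjusted p 0.10), and at -0.19 without vehicle replicate 2.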

How the data were processed

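The authors deposited whole-number read counts per gene symbol, 1 table per mouse. Per the submitters' processing notes, Bowtie2, bedtools and the mm10 build were used. On versions, annotation, strand setting and treatment of multiply matching reads, nothing was given in the sources used here. A Lexogen Quant-Seq kit was used on total RNA, per the labels' protocols. Of 23282 rows, 44 repeated a symbol and stayed separate rows; 11700 passed edgeR's filterByExpr (minimum count 10, minimum total count 15), all 10 members among them. Counts were TMM-scaled and tested with edgeR 4.0.16 (R 4.3.3, quasi-likelihood, two-sided, group as the only term). Benjamini-Hochberg adjustment ran over all genes, with a threshold of 0.05. The p-values rest on the spread among 3 mice per group, moderated by the spread of the other genes. Standard errors come from fitted weights and the moderated dispersion. The test was tried on simulated counts. Ratios within libraries were compared by exact permutation, and shares carry Wilson 95% intervals, which cover counting error only. Coordinates and lengths are from GENCODE M21 (GRCm38, the assembly of mm10). Members and lists were chosen with earlier results of these data known. All 10 members were named, with 17 listed partner genes, 6 fibre markers and the 3 smallest p of each pathway list. Marker lists of smooth muscle, endothelium, macrophages, fibroblasts, Schwann cells, fat and erythroid cells summed in overlapping ranges in both groups, except Schwann cells. Alternatives were DESeq2 1.42.0, limma-voom (limma 3.58.1), other scalings and filters, a replicate block and each library left out.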

Additional observations from a re-analysis of the deposited data

How the results depend on the processing

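No member was called under any of the alternatives run (edgeR with RLE, upper-quartile or library-total scaling, no filter, at least 1 CPM in all 6 samples, the robust option, the replicate block, a threshold of 0.10 and each library left out, and DESeq2 and limma-voom). Over all genes the count of calls was 0 in the main analysis, 95 with no filter on low counts, 1 with DESeq2 and 25 without inotodiol replicate 3, and 0 to 25 when each library was omitted in turn; the cause was not tested. With library-total scaling the median of the members moved from 0.045 to -0.066, as that of all genes moved by 0.12, and these log2 fold changes turned below 0: Cacna1s -0.078, Atp2a1 -0.10, Casq1 -0.059, Casq2 -0.072, Pvalb -0.014, Cacnb1 -0.10, Asph -0.024, Srl -0.10, Fkbp1a -0.051, Bin1 -0.085, Stim1 -0.075, Mcu -0.091, Myh4 -0.025, Tnni1 -0.10, Orai1 -0.070. With upper-quartile scaling Cacnb1 was -0.00048 and Tnni1 -0.00070, and with limma-voom Tnnt1 was 0.00023. Direction also turned in at least 1 run with a library left out for these genes, with the range of their log2 fold changes: Asph -0.0079 to 0.19, Atp2a1 -0.075 to 0.10, Bin1 -0.045 to 0.065, Cacna1s -0.0090 to 0.10, Cacna2d1 -0.22 to 0.062, Cacnb1 -0.061 to 0.086, Casq1 -0.0047 to 0.14, Casq2 -0.089 to 0.21, Fkbp1a -0.071 to 0.14, Mcu -0.041 to 0.068, Mrln -0.031 to 0.41, Mtm1 -0.28 to 0.98, Myh7 -0.029 to 0.26, Orai1 -0.080 to 0.14, Srl -0.014 to 0.064, Stim1 -0.12 to 0.41, Stim2 -0.23 to 0.022, Sypl2 -0.029 to 0.23, Tmem38a -0.065 to 0.037, Tnni1 -0.15 to 0.19, Tnnt1 -0.18 to 0.10. The Casq2 share difference ran from -0.74 to 0.41 percentage points over these runs, and turned without vehicle replicate 2. The other 4 ratios kept their sign, also per kilobase and, for the pump ratios, with Rabep2 added, an alternative chosen after seeing the data. Rcan1 passed with no filter (log2 fold change 0.67, adjusted p 0.029). In the labels, same-numbered mice share only a number. Correlations of their deviations from the group means were -0.081, 0.11 and 0.022, and not every library correlated best with its own number. Deviations within a group of 3 are not independent of each other, so these values cannot exclude a pairing. With the replicate block 0 genes and 0 members were called, 2 members had an unadjusted p under 0.05 (605 genes in all), and the paired differences of the 5 ratios gave exact sign-flip p from 0.50 to 1.0, where 3 pairs cannot give less than 0.25. For Sln the spread between mice, pooled over the groups, was 33.8%, and counting error at its mean count was 8.01%. The groups were unlike, with 19.8 ± 2.34 CPM in vehicle and 13.1 ± 6.05 CPM in inotodiol libraries (SD, n = 3). The part of depth in the Sln difference was not tested.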
